A study of Mus musculus with 8 samples.

Results

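The 9 genes described here encode the 3 PPAR, 3 RXR and 2 LXR nuclear receptors and the corepressor NCoR1: Pparg, Ppara, Ppard, Rxra, Rxrb, Rxrg, Nr1h3, Nr1h2 and Ncor1. They were chosen by gene symbol from 54134 genes in the deposited table, and all 9 were found. The rule used no cutoff on their values, but earlier results of these data were known when it was set. On GRCm38 they lie on chromosomes 6 (Pparg), 15 (Ppara), 17 (Ppard and Rxrb), 2 (Rxra and Nr1h3), 1 (Rxrg), 7 (Nr1h2) and 11 (Ncor1). RNA came from wild-type mouse bone marrow adipocytes in 8 libraries, made from bone marrow stem cells by 14 days of adipogenic differentiation in culture. The GC+GW9662 group (n = 3) received 1e-06 M dexamethasone (DEX, a synthetic glucocorticoid) plus GW9662, a PPARγ antagonist whose dose is not given in the sources used here, for 24 hours. The GC group (n = 3) received 1e-06 M DEX alone for 24 hours, and the Control group (n = 2) was differentiated in the same way without either agent. No group received GW9662 without DEX, so an effect of GW9662 by itself cannot be told apart from its effect in the presence of DEX. Whether the libraries of a group are separate animals or cultures is not stated, so the p-values below may rest on technical spread alone.

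PPARs and LXRs are ligand-activated transcription factors that bind DNA as heterodimers with an RXR. PPARs are activated by fatty acids and their derivatives, LXRs by oxysterols and RXRs by 9-cis retinoic acid, and PPARγ is the master regulator of adipocyte differentiation. Without an agonist, several of these heterodimers recruit NCoR1, a scaffold that brings the histone deacetylase HDAC3 to target genes, and agonist binding exchanges it for coactivators.

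Values are TPM, which divide reads by gene length and bring every library to a common sum, so levels may be compared between genes within limits. The libraries differed by gene length. The median log2 change in GC+GW9662 against Control was 0.59 for the shortest of 10 length classes and -1.68 for the longest. Levels of genes of unlike length, and the shares built on them, carry that trend. Changes are differences in log2(TPM + 1) with their SE from limma over all 8 libraries, with p adjusted by Benjamini-Hochberg over 14985 genes that reached 1 TPM in at least 2 libraries. That scale understates the change of genes near 1 TPM. The depth, estimated from the steps between low values, was about 18166454 to 19232392 reads in GC+GW9662, 19516009 to 27863460 in GC and 25935332 to 27278378 in Control libraries. Of the 9 genes, 7 passed the filter, and Ppara and Rxrg did not.

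3 features of the libraries bear on the values below. Fkbp5 and Tsc22d3, which glucocorticoids induce in most cells, peaked in the libraries labelled Control: Fkbp5 had 78.8 to 103.7 TPM in GC+GW9662, 32.5 to 80.3 TPM in GC and 429 to 463 TPM in Control libraries, and Tsc22d3 had 401 to 455, 50.9 to 65.4 and 543 to 572 TPM in the same order. Every direction below therefore rests on the labels. The adipocyte label was only partly borne out. Of 10 adipocyte markers, 5 were detected in every library, and Lep, the leptin gene, was at 0 throughout. The others, Adig, Cfd, Cidec and Retn, were at 0 in GC libraries only, so all markers but Lep were detected in every GC+GW9662 and Control library. The summed adipocyte markers came to 1134 to 1295 TPM in GC+GW9662, 175.1 to 247 TPM in GC and 815 to 836 TPM in Control libraries. All 12 macrophage markers were detected in every library and summed to 24847 to 28893, 9939 to 10435 and 31432 to 32352 TPM in the same order, most of it from Lyz2 and the C1q genes. Of 7 neutrophil markers, S100a8 had 71.1 to 82.0 TPM in GC+GW9662, 248 to 548 TPM in GC and 19.9 to 25.6 TPM in Control, while Ltf was at 0 throughout, S100a9, Elane, Mpo and Ly6g were under 1 TPM in every library and Camp averaged 1.66 TPM in GC+GW9662, 0.555 TPM in GC and 0.846 TPM in Control with overlapping groups. Smooth muscle type markers such as Tagln and Acta2 summed to 8827 to 8891, 238 to 352 and 9510 to 9659 TPM in the same order. In such bulk RNA, fewer cells of a type and less RNA per cell cannot be told apart. GC replicate 1 also differed from GC replicates 2 and 3 by transcript length, lying a median of 0.20 (log2) above them for the shortest of 10 length classes and -0.81 from them for the longest.

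The promoters shown here are those of the genes whose levels moved in opposite directions, Pparg and Nr1h3 on one side and Ppard and Rxrb on the other. Each runs from 250 bases before an annotated start to 50 bases after it, on the gene's strand, from RefSeq (GRCm38.p6), and capitals mark the nuclear receptor half-site AGGTCA or the GC box GGGCGG, read on either strand. They are Pparg at chr6:115360894-115361193 and chr6:115362099-115362398 (plus strand), Nr1h3 at chr2:91195067-91195366 (minus strand), Ppard at chr17:28232504-28232803 (plus strand) and Rxrb at chr17:34031562-34031861 (plus strand).
Pparg, first start: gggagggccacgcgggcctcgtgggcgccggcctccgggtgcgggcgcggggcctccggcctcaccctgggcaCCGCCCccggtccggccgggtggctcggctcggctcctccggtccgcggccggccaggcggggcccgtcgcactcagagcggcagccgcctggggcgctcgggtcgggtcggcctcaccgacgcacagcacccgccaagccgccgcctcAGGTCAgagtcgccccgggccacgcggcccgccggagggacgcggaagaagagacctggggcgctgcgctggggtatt
Pparg, second start: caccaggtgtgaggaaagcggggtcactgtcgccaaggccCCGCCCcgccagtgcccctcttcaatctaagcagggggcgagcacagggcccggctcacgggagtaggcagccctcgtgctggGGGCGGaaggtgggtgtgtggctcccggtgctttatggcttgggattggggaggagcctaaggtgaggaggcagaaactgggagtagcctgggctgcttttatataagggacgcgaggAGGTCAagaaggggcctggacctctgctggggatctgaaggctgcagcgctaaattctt
Nr1h3: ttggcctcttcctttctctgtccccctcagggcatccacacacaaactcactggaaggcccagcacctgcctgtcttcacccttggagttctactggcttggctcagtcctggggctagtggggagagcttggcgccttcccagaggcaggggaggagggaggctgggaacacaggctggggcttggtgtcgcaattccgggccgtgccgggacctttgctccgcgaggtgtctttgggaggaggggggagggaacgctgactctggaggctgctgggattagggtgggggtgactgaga
Ppard: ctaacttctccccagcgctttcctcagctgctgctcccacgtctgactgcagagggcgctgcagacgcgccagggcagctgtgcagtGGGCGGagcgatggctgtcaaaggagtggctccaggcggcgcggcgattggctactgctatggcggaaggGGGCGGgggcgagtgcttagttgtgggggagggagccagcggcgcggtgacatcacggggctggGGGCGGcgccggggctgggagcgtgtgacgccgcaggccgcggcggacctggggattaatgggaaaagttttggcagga
Rxrb: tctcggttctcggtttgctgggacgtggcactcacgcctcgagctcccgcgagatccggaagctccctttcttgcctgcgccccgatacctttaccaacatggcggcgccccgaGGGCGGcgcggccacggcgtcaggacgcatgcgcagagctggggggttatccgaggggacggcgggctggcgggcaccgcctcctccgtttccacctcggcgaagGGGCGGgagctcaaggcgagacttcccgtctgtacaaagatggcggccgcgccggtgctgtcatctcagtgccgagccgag
Both Pparg promoters shown held 1 AGGTCA each, starting 28 and 9 bases before the annotated start, while the Nr1h3, Ppard and Rxrb promoters shown held none. The GC box stood 3 times in the Ppard and 2 times in the Rxrb promoter shown, 1 and 2 times in the Pparg promoters shown and not in that of Nr1h3. RefSeq gives further starts that are not shown: the promoters of another Pparg start (chr6:115421816-115422115) and another Nr1h3 start held neither motif, and that of another Rxrb start held 4 GC boxes and no AGGTCA. Over all 16 RefSeq promoters of the 9 genes, AGGTCA occurred in 4 (of Pparg, Rxra and Rxrg), and 16.2% of 32544 RefSeq promoters of the same length held it. GGGCGG occurred in 8 of the 16, from 6 genes, against 35.9% of all promoters. None of the 16 held the direct repeat bound by PPAR-RXR, which is AGGTCA repeated after 1 base of any kind (in 0.0399% of all promoters), or that bound by LXR-RXR, AGGTCA repeated after 4 bases (0.0154%). The glucocorticoid receptor site, AGAACA followed after 3 bases by TGTTCT (0.00922%), its core, ACA followed after 3 bases by TGT (6.83%), and the C/EBP palindrome TTGCGCAA (0.184%) were likewise in none. The AGGTCA search also counts any half-site within the 2 repeats, and the search for the glucocorticoid receptor core any within the full site.

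The Pparg values themselves carry a feature that no other gene of similar depth shared. TPM made from whole reads are whole multiples of the worth of 1 read at the gene's length, and 4680 genes had 20 to 1000 such reads in every library. Of these, 4498 gave whole reads (within 0.03 reads or a relative 2e-05) in all 8 libraries at the length of a GENCODE M21 transcript, and Pparg was the only 1 that gave none at any whole-number length tried. At 2125 bases, the length of the transcript Pparg-202, the GC values came to 48, 87 and 84 reads. At that length the GC+GW9662 values came to 367.33, 429.08 and 410.72 reads, and the Control values to 141.59 and 213.62 reads. The other 8 genes described here were whole in all 8 libraries, Ppard at 3218 and Rxrb at 2623 bases, which are lengths of no GENCODE M21 transcript of these genes.

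**Figure D1:**
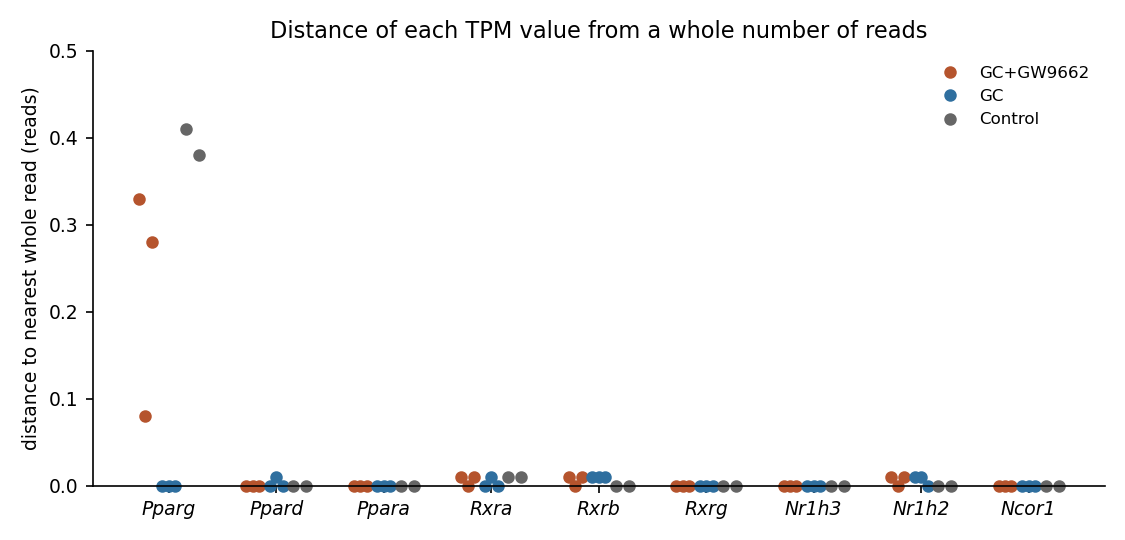
Distance of each TPM value from the nearest whole number of reads (vertical axis, reads) for the 9 genes, 1 point per library, in GC+GW9662 (n = 3), GC (n = 3) and Control (n = 2). The 5 Pparg values of GC+GW9662 and Control lie up to 0.41 reads from a whole number, while the 3 GC values of Pparg and all values of the other 8 genes lie within 0.01.

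Of these Pparg values, 2 were deposited with few decimals. In GC+GW9662 replicate 1 Pparg was deposited as 16.74356, and 4 of 4869 values of 10 to 100 TPM in that library had 5 or fewer decimals, where 8 was usual. The other libraries had 3 to 11 such values each, so the decimals alone do not set this value apart. In Control replicate 1 Pparg was deposited as 6.2891, the only 1 of 5008 values of 1 to 10 TPM in that library with 4 or fewer decimals, where 9 was usual. What produced these values was not tested. The Pparg results below are for the values as deposited, and those without these 2 libraries stand beside them. The GC+GW9662 and Control values of Pparg left in that fit were also not whole reads at the length of Pparg-202. That fit therefore cannot show the Pparg changes free of this feature.

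Pparg was highest in GC+GW9662 and lowest in GC. It had 16.7, 18.5 and 17.5 TPM in GC+GW9662, 2.26, 3.38 and 3.19 TPM in GC and 6.29 and 8.84 TPM in Control libraries, and no 2 groups overlapped. Such separation was common: 71.9% of all tested genes did not overlap between GC and Control. The share was 64.1% for GC+GW9662 and GC and 79% for GC+GW9662 and Control. Against GC, Pparg rose 5.97-fold in GC+GW9662 (2.25 ± 0.19 in log2, limma adjusted p = 3.4e-05). Against Control, it fell 2.57-fold in GC (-1.12 ± 0.21, adjusted p = 0.0026) and rose 2.32-fold in GC+GW9662 (1.13 ± 0.21, adjusted p = 0.0033). Without both libraries named above, a fit added after the data were seen that rests on 1 Control library assumed to vary like the other groups, the changes were 2.28 (limma adjusted p = 0.0017) for GC+GW9662 against GC, -1.33 (0.023) for GC against Control and 0.95 (0.080) for GC+GW9662 against Control. The call for GC against Control was also lost after quantile normalization (-0.36, limma adjusted p = 0.13), and that change was -0.64 (0.020) with median-ratio scaling. The rise in GC+GW9662 against Control was 2.04 (limma adjusted p = 8.7e-04) after quantile normalization. These gene-level values do not separate the PPARγ1 and PPARγ2 transcripts.

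Ppard, the widely expressed PPARδ that drives fatty acid oxidation genes, ran the other way. Its row carries the symbol, Ensembl ID, description and span of Ppard, but an NCBI gene ID that RefSeq gives to a long noncoding RNA gene within that span on the same strand, and whether its reads include any from that gene was not tested. It measured 4.21, 6.14 and 4.47 TPM in GC+GW9662, 27.6, 68.6 and 54.0 TPM in GC and 20.4 and 21.1 TPM in Control libraries. The groups did not overlap, and GC replicate 1 was the lowest of its group. Ppard fell 10.1-fold in GC+GW9662 against GC (-3.02 ± 0.31, limma adjusted p = 1.0e-04), and 1.31% of the tested genes had a lower log2 change in that comparison. It fell 4.19-fold in GC+GW9662 against Control (-1.88 ± 0.35, limma adjusted p = 0.0032). All genes of its length class by GENCODE M21 exons, 7514 bases for Ppard, had a median of -1.39 there. The class that holds 3218 bases, the length at which its values were whole reads, had a median of -0.45. Removal of the length trend used the 7514 bases. The Ppard change against Control was -0.76 (limma adjusted p = 0.029) with that trend removed, -0.98 (0.024) after quantile normalization and -1.22 (0.0078) after median-ratio scaling. In GC against Control it rose 2.42-fold (1.14 ± 0.35, limma adjusted p = 0.023). That rise is the least firm of the Ppard calls: it was lost without GC replicate 3 (limma adjusted p = 0.069), without Control replicate 1 (0.11) or 2 (0.093) and in a fit of the GC and Control groups alone (0.068). It was larger with the length trend removed (1.97, limma adjusted p = 1.4e-04).

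Ppara, the PPAR of liver and other tissues with high fatty acid oxidation, was close to absent. It corresponded to 5, 2 and 7 reads in GC+GW9662, to 0, 3 and 0 reads in GC and to 14 and 19 reads in Control libraries, or at most 0.490 TPM. The reads were more numerous in both Control libraries than in any other library, but the gene was under the filter and entered no test. In a fit without the filter it passed in GC against Control (-0.49, limma adjusted p = 0.0021) and in GC+GW9662 against Control (-0.35, 0.011), and not in GC+GW9662 against GC (0.14, 0.17).

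The makeup of the PPAR pool changed with these genes. Pparg took 79.4%, 74.9% and 79.0% of the summed PPAR TPM in GC+GW9662, 7.57%, 4.69% and 5.57% in GC and 23.3% and 29.1% in Control libraries. Ppard held nearly all of the rest, on average 21.7 ± 2.78% in GC+GW9662, 94.0 ± 1.43% in GC and 72.3 ± 4.24% in Control (SD, n = 3, 3 and 2). By the values as deposited, Pparg was thus the most abundant PPAR transcript in the 3 GC+GW9662 libraries and Ppard in the other 5. These shares rest on the Pparg values that were not whole reads and on the Ppard row with its other gene ID, both described above. How far either affects the shares was not tested. The share of Pparg differed by 71.8 points between GC+GW9662 and GC (two-sided exact permutation p = 0.1, the smallest that 3 against 3 allows). GC and Control differed by -20.2 points and GC+GW9662 and Control by 51.6 points, each with an exact permutation p of 0.2, the smallest that this test gives for 3 against 2, so no share could pass 0.05. The summed PPAR TPM was 21.1 to 24.7 in GC+GW9662, 29.9 to 72.0 in GC and 27.0 to 30.4 in Control libraries.

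**Figure D2:**
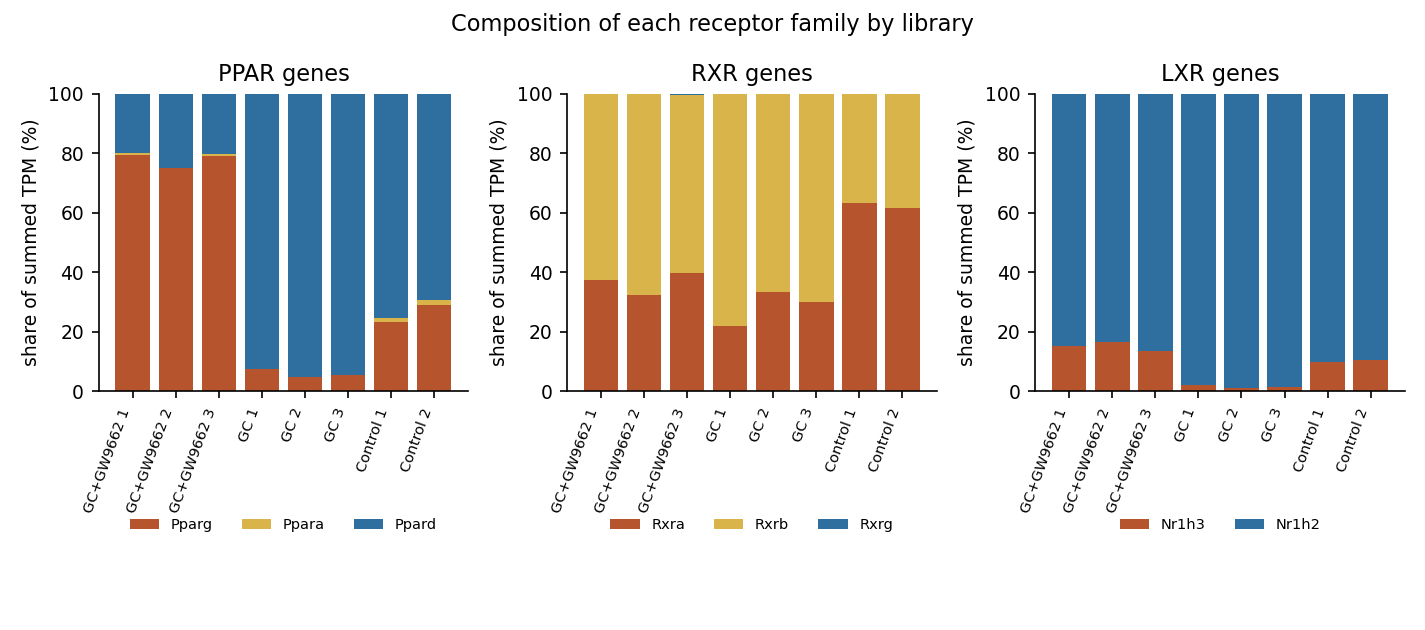
Share of the summed TPM of each receptor family (vertical axis, %) held by each gene in each library, for PPAR, RXR and LXR genes. Pparg makes up 74.9% to 79.4% of PPAR TPM in GC+GW9662, 4.69% to 7.57% in GC and 23.3% to 29.1% in Control, and Rxra makes up 22.1% to 39.7% of RXR TPM in the treated libraries and 61.7% to 63.4% in Control. The PPAR shares are for the Pparg and Ppard values as deposited, with the limits given in the text.

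Among the RXRs, the shared heterodimer partners, Rxra and Rxrb moved in opposite directions in GC against Control. Rxra had 34.7, 26.0 and 33.9 TPM in GC+GW9662, 26.8, 52.2 and 44.2 TPM in GC and 97.9 and 90.0 TPM in Control libraries. Both Control libraries stood above all 6 treated libraries, and the 2 treated groups overlapped. Rxra fell 2.29-fold in GC against Control (-1.23 ± 0.27, limma adjusted p = 0.0051) and 2.98-fold in GC+GW9662 against Control (-1.55 ± 0.27, limma adjusted p = 0.0027). With the length trend removed these changes were -0.52 (limma adjusted p = 0.023) and -0.62 (0.013), and with median-ratio scaling -0.67 (0.013) and -0.84 (0.0058). Between GC+GW9662 and GC the change was -0.33 ± 0.24 (limma adjusted p = 0.26), and it passed the threshold without GC replicate 1 (-0.60, limma adjusted p = 0.0055) and with library weights (-0.42, 0.0012).

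Rxrb, the broadly expressed RXRβ, was highest in the GC libraries. It measured 58.3, 54.4 and 51.1 TPM in GC+GW9662, 94.1, 103.5 and 102.5 TPM in GC and 56.4 and 55.8 TPM in Control libraries. Rxrb rose 1.78-fold in GC against Control (0.82 ± 0.11, limma adjusted p = 3.9e-04) and fell 1.83-fold in GC+GW9662 against GC (-0.86 ± 0.10, limma adjusted p = 1.7e-04). The rise was 1.41 (limma adjusted p = 2.5e-05) with the length trend removed. GC+GW9662 and Control overlapped (-0.04 ± 0.11, limma adjusted p = 0.78), but relative to the other genes Rxrb was higher in GC+GW9662 than in Control after median-ratio scaling (0.68, 0.0047), quantile normalization (0.40, 0.011) or removal of the length trend (0.69, 0.0042). Rxrg, the RXRγ of muscle and brain, corresponded to 1, 1 and 8 reads in GC+GW9662, 2, 0 and 0 in GC and 5 and 1 in Control libraries, so a difference was not detectable at this depth. Rxra thus made up 37.3%, 32.4% and 39.7% of RXR TPM in GC+GW9662, 22.1%, 33.5% and 30.1% in GC and 63.4% and 61.7% in Control libraries. The exact permutation p was 0.2 for each of the 3 differences in this share, two-sided.

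The 2 LXR genes differed in their response. Nr1h3, which encodes LXRα, the LXR enriched in liver, adipose tissue and macrophages, had 12.5, 10.4 and 10.8 TPM in GC+GW9662, 1.82, 1.58 and 1.75 TPM in GC and 12.0 and 12.8 TPM in Control libraries. These values corresponded to 256, 225 and 238 reads, to 36, 38 and 43 reads, and to 252 and 288 reads. All GC libraries lay below all others. Nr1h3 fell 7.22-fold in GC against Control (-2.30 ± 0.17, limma adjusted p = 1.8e-05) and rose 6.55-fold in GC+GW9662 against GC (2.17 ± 0.15, limma adjusted p = 1.4e-05). The adipocyte and macrophage marker sums given above were lowest in the same GC libraries (10 of 12 macrophage markers were lower than in Control and Cd68 was higher), and their part in this result was not tested.

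GC+GW9662 and Control overlapped for Nr1h3, at -0.13 ± 0.17 (limma adjusted p = 0.53). After median-ratio scaling (0.54, limma adjusted p = 0.028) and quantile normalization (0.83, 0.0061) Nr1h3 was higher in GC+GW9662. In the GENCODE M21 exons Nr1h3 shares 34 bases, or 1.35% of its exon length, with Gm13783 on the same strand. Ncor1 likewise shares 0.64% with Pigl and 1 base with Ttc19 on the opposite strand, which these unstranded libraries cannot separate, and the exons of the other 7 genes overlap those of no other annotated gene.

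Nr1h2, which encodes the ubiquitous LXRβ, was the most abundant of the 9 genes in every library of GC+GW9662 except replicate 2, in GC replicates 2 and 3 and in both Control libraries. It measured 70.1, 52.1 and 68.5 TPM in GC+GW9662, 83.5, 126 and 113 TPM in GC and 110 and 109 TPM in Control libraries. All GC+GW9662 libraries lay below all others, while GC and Control overlapped. Nr1h2 fell 1.69-fold in GC+GW9662 against GC (-0.74 ± 0.18, limma adjusted p = 0.0075) and 1.73-fold in GC+GW9662 against Control (-0.79 ± 0.20, limma adjusted p = 0.0092). The fall against Control was lost after median-ratio scaling (-0.07, 0.66), after removal of the length trend (-0.16, 0.37) and without Control replicate 1 (-0.78, 0.057). In GC against Control the change was -0.05 ± 0.20 (limma adjusted p = 0.86), and it turned positive and passed after median-ratio scaling (0.51, 0.011) and removal of the length trend (0.47, 0.024). Nr1h3 made up 15.1 ± 1.46% of LXR TPM in GC+GW9662, 1.63 ± 0.456% in GC and 10.1 ± 0.480% in Control (SD, n = 3, 3 and 2; exact permutation p = 0.1 for GC+GW9662 against GC and 0.2 for the other comparisons).

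Ncor1, the corepressor, was highest in Control. It had 5.50, 5.22 and 4.89 TPM in GC+GW9662, 2.71, 8.08 and 5.96 TPM in GC and 24.5 and 23.1 TPM in Control libraries. All treated libraries lay below both Control libraries, and the GC libraries spanned those of GC+GW9662. Ncor1 fell 4.26-fold in GC against Control (-2.01 ± 0.34, limma adjusted p = 0.0014) and 4.58-fold in GC+GW9662 against Control (-2.001 ± 0.34, limma adjusted p = 0.0027). GC+GW9662 and GC differed by 0.01 ± 0.30 (limma adjusted p = 0.99), with GC replicate 1 below the other GC libraries. Without that library the difference was -0.36 (limma adjusted p = 0.061), and with the length trend removed it was 0.42 (0.0495). Ncor1 lies in the longest of 10 bins of exon length, in which the median change of all genes was -0.51 in GC+GW9662 against GC, -1.09 in GC against Control and -1.68 in GC+GW9662 against Control. With the length trend removed the Ncor1 changes were -0.96 (limma adjusted p = 0.0019) in GC against Control and -0.54 (0.036) in GC+GW9662 against Control, and with median-ratio scaling -1.49 (0.0019) and -1.33 (0.0050).

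**Figure D3:**
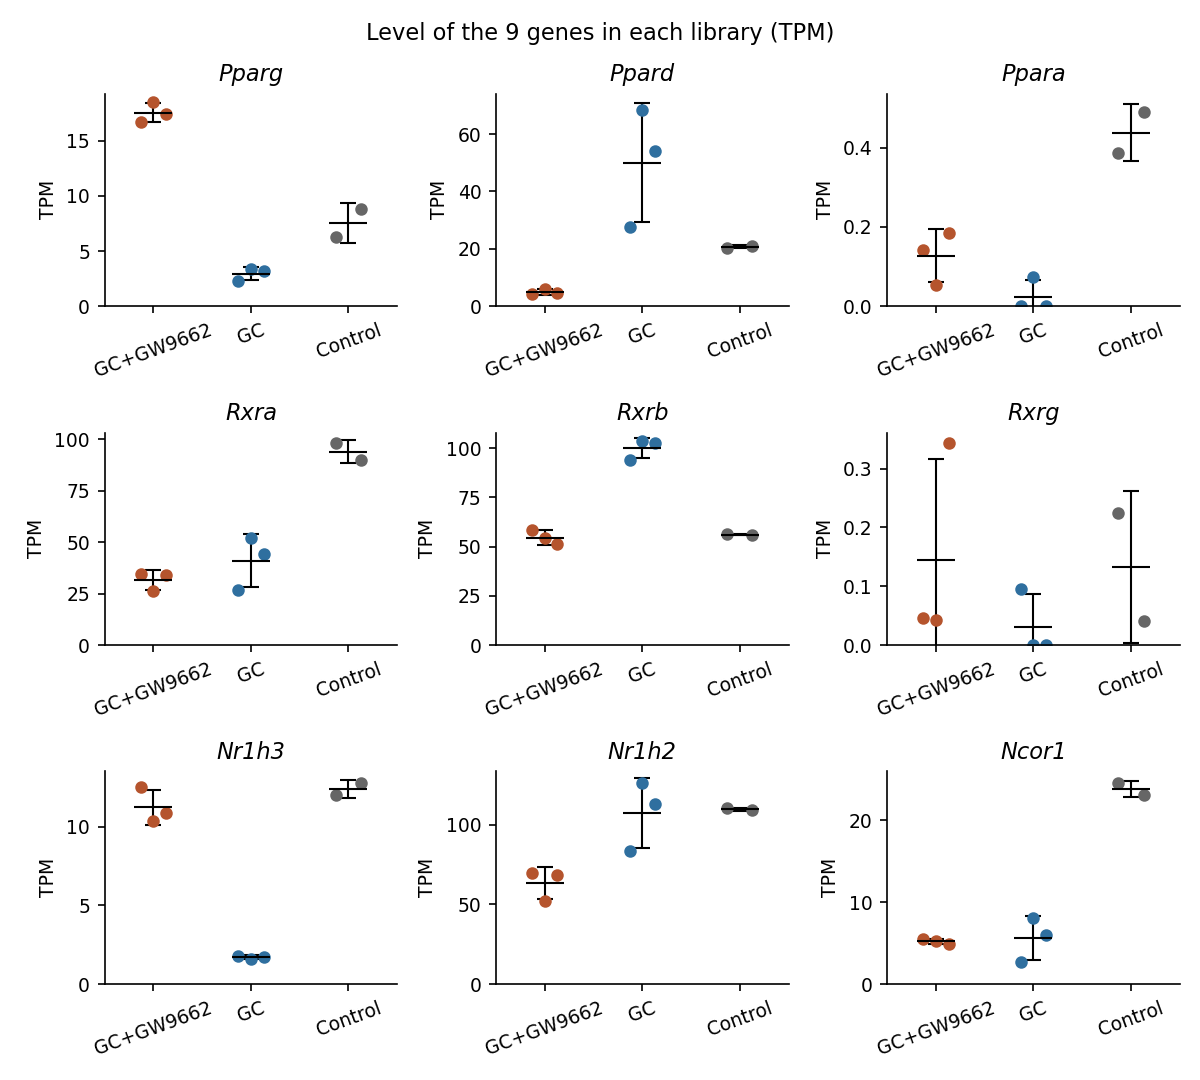
TPM (vertical axes, linear, each from 0) of the 9 genes in GC+GW9662, GC and Control, 1 point per library, with the group mean (wide bar) and SD (error bar; n = 3, 3 and 2). Pparg and Nr1h3 are lowest in GC, Ppard and Rxrb are highest in GC, and Rxra and Ncor1 are highest in Control.

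Counted together, 2 of the 7 tested genes were higher in GC than in Control (Ppard, Rxrb), 4 lower (Pparg, Rxra, Nr1h3, Ncor1) and 1 passed in neither direction, where 55.3% of all tested genes passed (16.2% higher and 39.1% lower). In GC+GW9662 against GC, 2 were higher (Pparg, Nr1h3), 3 lower (Ppard, Rxrb, Nr1h2) and 2 did not pass, against a background of 61.7% (28.3% higher and 33.5% lower). In GC+GW9662 against Control, 1 was higher (Pparg), 4 lower (Ppard, Rxra, Nr1h2, Ncor1) and 2 did not pass, against 62.7% (14.1% higher and 48.6% lower). Without the 2 libraries named above for their Pparg values, all 5 calls in GC+GW9662 against Control and those of Ppard and Rxra in GC against Control were lost, in a fit with 1 Control library. In the 3 comparisons, in that order, the groups did not overlap for 6, 5 and 5 of the 7 genes, against 71.9%, 64.1% and 79% of all tested genes. With so many genes passing and separated, neither a call nor a lack of overlap by itself sets any of the 9 apart from the rest of the transcriptome.

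The median of all tested genes was itself below 0, at -0.38 in GC against Control, -0.11 in GC+GW9662 against GC and -0.49 in GC+GW9662 against Control, and median-ratio scaling moved it to 0.05, 0.01 and 0.04. Relative to that median, the change in GC against Control was 1.52 for Ppard, 1.21 for Rxrb, 0.33 for Nr1h2, -0.73 for Pparg, -0.84 for Rxra, -1.62 for Ncor1 and -1.92 for Nr1h3. It was 2.36 for Pparg, 2.28 for Nr1h3 and -2.91 for Ppard in GC+GW9662 against GC. Pparg and Nr1h3 there exceeded 96.1% and 95.7% of the tested genes. Pparg stood 1.63 above the median in GC+GW9662 against Control, and Ncor1 -1.51 and Ppard -1.39 from it. The 3 comparisons share libraries, so their changes are not independent of each other.

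**Figure D4:**
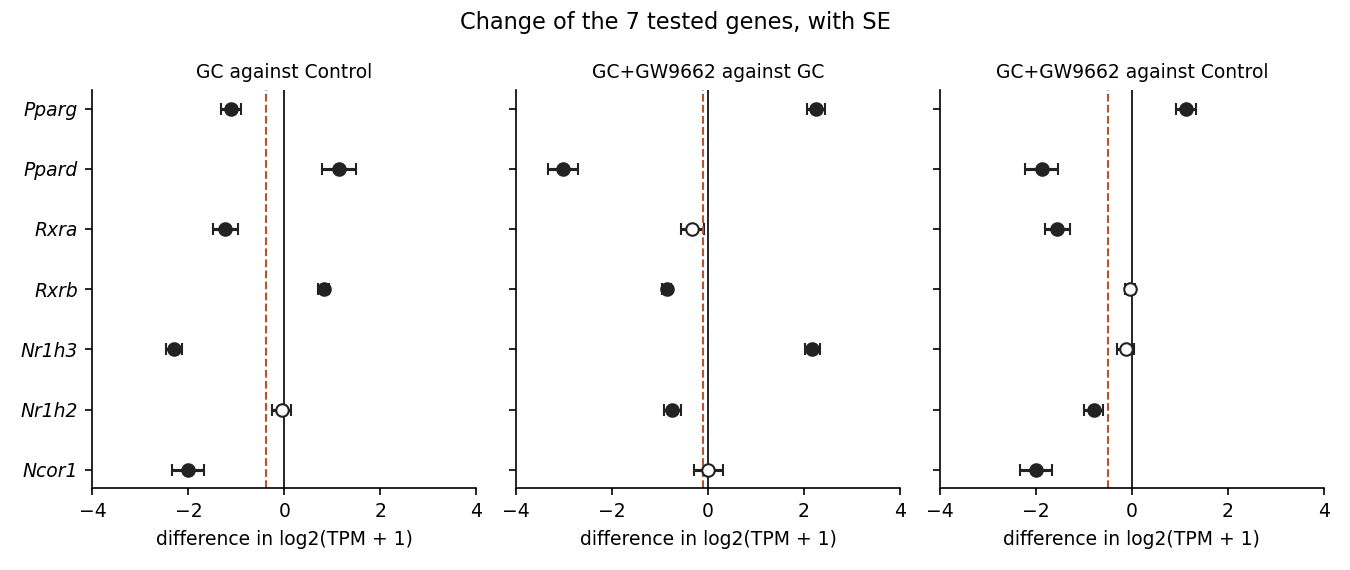
Difference in log2(TPM + 1) (horizontal axis) with its SE for the 7 tested genes in 3 comparisons, with filled points where the adjusted p was under 0.05 and a dashed line at the median of all tested genes. Pparg and Nr1h3 lie left of 0 in GC against Control and right of it in GC+GW9662 against GC, and Ppard and Rxrb lie the other way round.

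The order of the levels differed between groups. In GC+GW9662, Nr1h2 (63.6 ± 9.91 TPM) and Rxrb (54.6 ± 3.57) overlapped at the top, followed by Rxra (31.6 ± 4.80), Pparg (17.6 ± 0.871) and Nr1h3 (11.2 ± 1.11). Ncor1 (5.20 ± 0.304) and Ppard (4.94 ± 1.05) came next and overlapped. In GC, Nr1h2 (108 ± 21.9 TPM) and Rxrb (100.0 ± 5.15) overlapped, as did Ppard (50.1 ± 20.8) and Rxra (41.1 ± 12.99). Ncor1 (5.58 ± 2.70) and Pparg (2.94 ± 0.598) also overlapped there, and Nr1h3 (1.71 ± 0.121) was below both. In Control, Nr1h2 (110 ± 0.899 TPM), Rxra (93.9 ± 5.63), Rxrb (56.1 ± 0.413), Ncor1 (23.8 ± 1.001), Ppard (20.7 ± 0.508), Nr1h3 (12.4 ± 0.551) and Pparg (7.57 ± 1.81) followed each other without overlap.

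Over the 8 libraries the genes fell into patterns of shared profile, given as a description since the groups set most of the variation. In log2(TPM + 1), Rxra and Ncor1 had a Pearson r of 0.96, Rxrb and Nr1h3 of -0.98, Pparg and Ppard of -0.91 and Pparg and Nr1h3 of 0.85. Among 9965 genes, the profiles most like that of Pparg were those of the chemokine genes Ccl2 (r = 0.990) and Ccl7 (0.984) and of the small GTPase gene Rnd2 (0.989). Ccl2 had 39.0 to 44.9 TPM in GC+GW9662, 13.4 to 14.0 TPM in GC and 22.05 to 24.96 TPM in Control libraries. For Nr1h3 the closest were the sulfotransferase gene Sult1a1, Cyp20a1 and Ms4a6c (each r = 0.999), and Ms4a6c had 642 to 797 TPM in GC+GW9662, 4.57 to 7.01 TPM in GC and 900 to 915 TPM in Control libraries.

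For Ppard the closest profiles were those of Hspa9-ps1, the replication licensing gene Cdt1 and Zbtb34 (r = 0.997 to 0.998). For Rxrb they were the ceramidase gene Acer2, the kinase gene Pim1 and Prelid3b (0.996 to 0.997). Pim1 had 15.4 to 17.95 TPM in GC+GW9662, 171 to 273 TPM in GC and 18.2 to 18.3 TPM in Control libraries. Cap1, Plod3 and Ttc13 were closest to Rxra (0.998 to 0.999), Ahcyl1, Prex1 and Antxr2 to Ncor1 (0.998 to 0.999) and Grsf1, Rasgef1b and Thoc1 to Nr1h2 (0.998 to 0.999). By Spearman correlation the 3 leading genes tied at 1 for Rxra, Nr1h2, Nr1h3, Ppard and Ncor1. For Rxra, Nr1h2, Nr1h3 and Ppard they were all others than by Pearson. Of the Pearson names, only Ahcyl1 for Ncor1, Ccl2 for Pparg and Acer2 for Rxrb were among the leading 3 by Spearman. Ties were broken by gene symbol, so a Pearson name may tie with the leading 3 and still be left out. The Spearman names therefore cannot decide whether the Pearson names hold.

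Other corepressor complex genes were more often lower than higher in both treated groups against Control, as were all tested genes, and fewer passed with the length trend removed. The counts of this and the following gene lists stand beside 16.2% of all tested genes higher and 39.1% lower in GC against Control, 28.3% and 33.5% in GC+GW9662 against GC, and 14.1% and 48.6% in GC+GW9662 against Control. Of 12 other corepressor complex genes, all tested, 2 were higher and 6 lower in GC than in Control (median -0.72), 2 higher and 3 lower in GC+GW9662 than in GC (-0.20), and 2 higher and 10 lower in GC+GW9662 than in Control (-1.09). With the length trend removed the last comparison had 2 higher and 4 lower (-0.36), and GC against Control 3 higher and 4 lower (0.03). Hdac3, the deacetylase that NCoR1 activates, averaged 67.6 ± 1.07 TPM in GC+GW9662 and 50.8 ± 6.28 TPM in GC (SD, n = 3 each) and rose (0.41 ± 0.12, limma adjusted p = 0.016), a call lost after rescaling without mitochondrial and the top 20 genes (0.27, 0.087).

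Sirt1, the NAD-dependent deacetylase that represses PPARγ activity together with NCoR1, had the largest change of the 12 genes in GC against Control. It averaged 5.23 ± 0.646 TPM in GC+GW9662, 135 ± 54.4 TPM in GC and 12.3 ± 0.707 TPM in Control. It rose in GC against Control (3.26 ± 0.33, limma adjusted p = 9.3e-05) and fell in GC+GW9662 against GC (-4.36 ± 0.30, 1.1e-05). Tbl1xr1, which exchanges corepressors for coactivators, averaged 14.0 ± 3.85 TPM in GC+GW9662, 5.23 ± 0.575 TPM in GC and 22.3 ± 0.0554 TPM in Control, and moved the other way (-1.91 ± 0.24, limma adjusted p = 2.6e-04, and 1.24 ± 0.21, 0.0015, in the same comparisons).

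Coactivator genes were lower in GC+GW9662 than in Control. Of 12 tested genes (of 15 listed), 0 were higher in any comparison by limma, while 5 were lower in GC than in Control (median -0.96), 5 lower in GC+GW9662 than in GC (-0.84) and all 12 lower in GC+GW9662 than in Control (-1.85). With the length trend removed, 5 of the 12 were lower and 1 higher in GC+GW9662 against Control (-0.63), and 3 lower and 4 higher in GC against Control (0.09). Ncoa1, or SRC-1, averaged 2.53 ± 0.162 TPM in GC+GW9662, 2.65 ± 1.27 TPM in GC and 16.4 ± 1.77 TPM in Control. Med1, the Mediator subunit that contacts PPARγ, fell in GC+GW9662 (2.96 ± 0.415 TPM) against GC (8.09 ± 2.78 TPM; -1.15 ± 0.25, limma adjusted p = 0.0049).

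Other receptors that share RXR were mostly lower in GC. Of 9 tested genes of 11, 1 was higher (Nr4a2) and 7 lower in GC than in Control (median -1.30), 5 were higher and 2 lower in GC+GW9662 than in GC (0.68), and 0 were higher and 6 lower in GC+GW9662 than in Control by limma (-0.94; 1 higher and 2 lower with the length trend removed, -0.20). Rara, the retinoic acid receptor α, averaged 6.41 ± 0.582 TPM in GC+GW9662, 1.97 ± 0.217 TPM in GC and 19.5 ± 1.14 TPM in Control. Vdr, the vitamin D receptor, averaged 5.37 ± 0.349, 0.988 ± 0.541 and 31.6 ± 1.87 TPM in the same order. Both fell in GC against Control and rose in GC+GW9662 against GC (Vdr -4.08 ± 0.26, limma adjusted p = 8.1e-06, and 1.72 ± 0.23, 4.3e-04).

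Genes that supply or clear retinoid and sterol ligands were mostly lower in GC than in Control, and mostly higher in GC+GW9662 than in GC. Of 12 tested genes of 18, 0 were higher and 10 lower in GC than in Control by limma (median -1.88; 2 higher and 9 lower with median-ratio scaling, -1.46), 9 were higher and 2 lower in GC+GW9662 than in GC (1.47), and 1 was higher and 4 lower in GC+GW9662 than in Control (-0.33; 4 higher and 3 lower with median-ratio scaling, 0.20). Dhrs3, which reduces retinaldehyde to retinol, averaged 197 ± 8.47 TPM in GC+GW9662, 4.17 ± 1.10 TPM in GC and 174 ± 2.15 TPM in Control (-5.10 ± 0.17, limma adjusted p = 4.6e-07 for GC against Control, and 5.28 ± 0.15, 2.4e-07 for GC+GW9662 against GC). Cyp26b1, which degrades retinoic acid, averaged 65.6 ± 4.38, 2.31 ± 0.585 and 157 ± 5.62 TPM in the same order of groups. Ch25h, which makes the LXR ligand 25-hydroxycholesterol, averaged 4.68 ± 0.203 TPM in GC+GW9662 and 0.727 ± 0.378 TPM in GC and rose (1.74 ± 0.21, limma adjusted p = 2.2e-04).

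PPARγ target genes, like Pparg, were mostly lower in GC than in Control. Of 26 tested genes of 30, 2 were higher (Dgat2, Olr1) and 20 lower in GC than in Control (median -2.46; 5 higher and 17 lower with median-ratio scaling, -1.89), 17 were higher and 5 lower in GC+GW9662 than in GC (1.60), and 6 were higher and 15 lower in GC+GW9662 than in Control (-0.71). That last split was 9 higher and 6 lower with median-ratio scaling (-0.01) and with the length trend removed (0.11). Adipoq, the adipokine adiponectin, had 246, 261 and 248 TPM in GC+GW9662, 4.96, 2.49 and 3.68 TPM in GC and 173 and 167 TPM in Control libraries. It fell in GC against Control (-5.22 ± 0.20, limma adjusted p = 8.2e-07) and rose in GC+GW9662 against GC (5.78 ± 0.18, 3.6e-07). Lpl, the lipoprotein lipase that LXR also induces, averaged 92.8 ± 8.15 TPM in GC+GW9662, 5.51 ± 0.969 TPM in GC and 621 ± 27.6 TPM in Control, and fell in GC+GW9662 against Control (-2.73 ± 0.15, limma adjusted p = 3.9e-04), where Pparg itself was higher. The lipid droplet genes Plin1 and Cidec averaged 22.3 ± 0.0820 and 35.8 ± 2.61 TPM in GC+GW9662, 0.139 ± 0.0664 and 0.223 ± 0.271 TPM in GC and 36.1 ± 1.02 and 43.9 ± 2.15 TPM in Control. Adipoq, Plin1, Cidec and Fabp4 are also adipocyte markers, so this list and the marker sum share genes.

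Targets of PPARα and PPARδ in fatty acid oxidation were mostly lower in GC than in Control. Of 23 tested genes of 28, 0 were higher and 19 lower in GC than in Control by limma (median -1.32), where Ppard was higher. There 3 were higher and 12 lower with the length trend removed (-0.78), and 1 higher and 13 lower with median-ratio scaling (-0.84). In GC+GW9662 against GC, where Ppard was lower, 14 were higher and 5 lower (0.57), and in GC+GW9662 against Control 0 were higher and 15 lower (-0.78; 3 higher and 7 lower with median-ratio scaling, -0.05). Pdk4, the kinase that shuts off pyruvate oxidation, averaged 25.4 ± 2.96 TPM in GC+GW9662, 2.56 ± 0.821 TPM in GC and 83.6 ± 7.29 TPM in Control. It fell in GC against Control (-4.60 ± 0.22, limma adjusted p = 2.1e-06) and rose in GC+GW9662 against GC (2.91 ± 0.20, 1.1e-05). Angptl4, an inhibitor of lipoprotein lipase, averaged 18.6 ± 1.92, 0.663 ± 0.224 and 38.5 ± 0.127 TPM in the same order of groups. Pdk4, Angptl4 and Plin2 are on both PPAR lists.

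Most LXR target genes were lower in both treated groups than in Control. Of 16 tested genes of 20, 1 was higher (Mylip) and 13 lower in GC than in Control (median -1.77; 2 higher and 11 lower with median-ratio scaling, -1.21), 8 were higher and 4 lower in GC+GW9662 than in GC (0.87), and 0 were higher and 14 lower in GC+GW9662 than in Control (-1.63), where Nr1h3 did not pass and Nr1h2 was lower. Median-ratio scaling left 2 higher and 10 lower there (-0.92). Scd2, a stearoyl-CoA desaturase, averaged 326 ± 16.0 TPM in GC+GW9662, 37.99 ± 6.86 TPM in GC and 626 ± 13.05 TPM in Control. It fell in GC against Control (-4.02 ± 0.15, limma adjusted p = 6.6e-07) and rose in GC+GW9662 against GC (3.08 ± 0.13, 1.1e-06). Apoe, the lipid-carrying apolipoprotein E, averaged 2799 ± 392 TPM in GC+GW9662 and 6514 ± 442 TPM in Control and fell (-1.23 ± 0.13, limma adjusted p = 0.0010), a call lost with median-ratio scaling (-0.50, 0.053).

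Mertk, the phagocytic receptor of macrophages and an LXR target, averaged 13.8 ± 2.79 TPM in GC+GW9662 and 136 ± 4.30 TPM in Control and fell (-3.22 ± 0.33, limma adjusted p = 8.6e-04). Of the 12 macrophage markers, 8 were also lower in GC+GW9662 than in Control (median -1.03) and 4, the C1q genes and Cd14, did not pass. Mrc1 averaged 41.2 ± 1.79 TPM in GC+GW9662 and 421 ± 19.8 TPM in Control, and Csf1r 139 ± 14.0 and 709 ± 29.5 TPM (SD, n = 3 and 2). The most abundant markers, Lyz2 and C1qa, differed from each other. Lyz2 averaged 6408 ± 1643 TPM in GC+GW9662 and 10681 ± 334 TPM in Control. C1qa averaged 9986 ± 220 and 7942 ± 21.2 TPM and was higher in every GC+GW9662 library than in Control. The part of the macrophage markers in the LXR target changes was not tested.

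Upstream regulators of Pparg were lower in GC in 11 of 18 tested cases (of 20 listed) and higher in 2 (Klf5, Gata2; median -1.16). Between GC+GW9662 and GC, 5 were higher and 7 lower (0.09), shares close to the 28.3% and 33.5% of all tested genes, and 8 were higher and 6 lower with the length trend removed (0.35). In GC+GW9662 against Control 0 were higher and 11 lower by limma (-1.01), where 48.6% of all tested genes were lower. With median-ratio scaling 5 were higher and 8 lower in GC against Control (-0.65) and 3 higher and 7 lower in GC+GW9662 against Control (-0.46). Gata2, which represses Pparg in preadipocytes, averaged 2.72 ± 0.295 TPM in GC+GW9662 and 23.3 ± 7.13 TPM in GC and fell (-2.67 ± 0.24, limma adjusted p = 4.4e-05). Cebpb, which activates Pparg early in adipogenesis, averaged 62.4 ± 4.06 TPM in GC+GW9662 and 291 ± 80.4 TPM in GC and fell (-2.17 ± 0.21, limma adjusted p = 7.4e-05). Ebf1, another activator, averaged 4.84 ± 1.14 TPM in GC+GW9662, 3.99 ± 1.62 TPM in GC and 35.8 ± 1.58 TPM in Control, and fell in both treated groups against Control (-2.94 ± 0.31, limma adjusted p = 1.1e-04 in GC; -2.67 ± 0.31, 0.0012 in GC+GW9662).

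**Figure D5:**
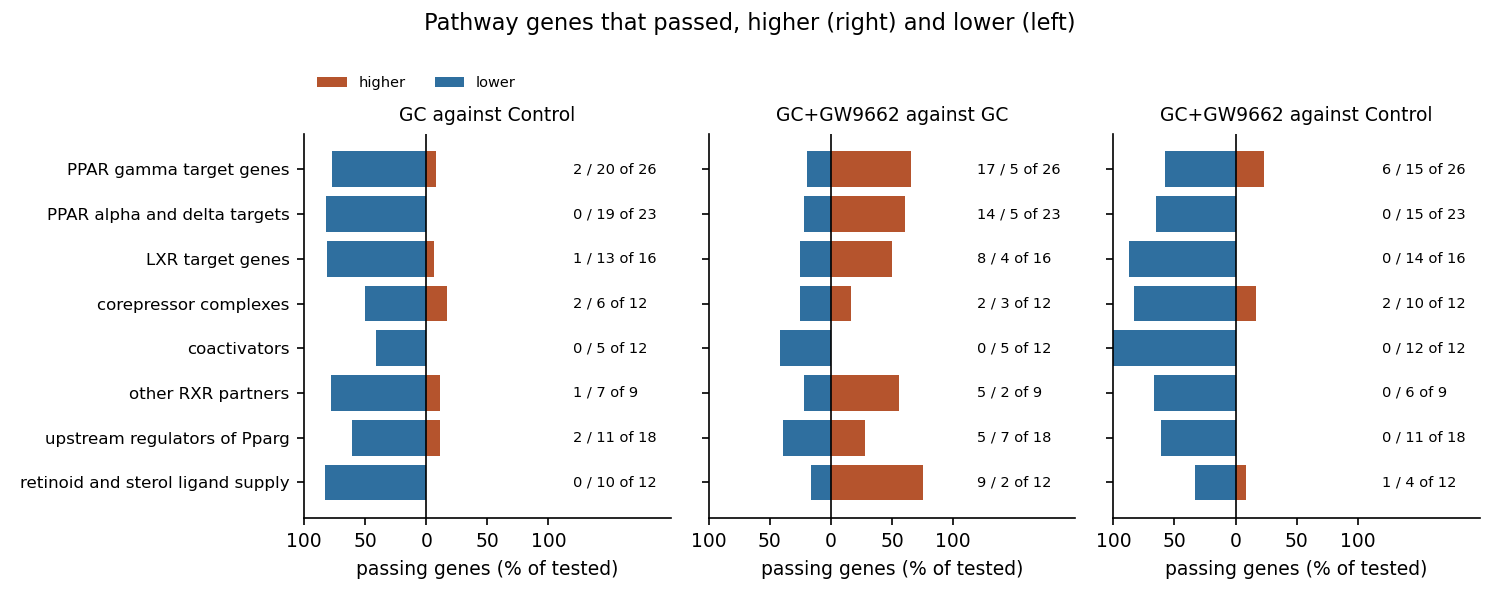
Percent of the tested genes of each list (horizontal axis) that passed as higher (right) or lower (left) in 3 comparisons, with higher / lower counts of the tested genes beside each bar. In GC+GW9662 against GC, 17 of 26 PPARγ target genes are higher, and in GC+GW9662 against Control all 12 tested coactivator genes are lower (5 with the length trend removed).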

How the data were processed

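The 8 RNA-seq libraries of mouse bone marrow adipocytes were made with the Smart-Seq2 protocol, which keeps no strand. The authors deposited TPM per gene and library in 54232 rows for 54134 genes, of which each was used once. Per the submitters' processing notes the tools included fastp, HISAT2 2.1.0 and featureCounts; their settings, annotation and genome build are not given in the sources used here. Starts and ends equalled those of GENCODE M21 (GRCm38) in 97.6% of rows, which supplied exon lengths for the estimates of reads. Those estimates speak to counting error only: the reads were amplified by PCR and carry no molecular identifiers.

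Genes were kept where 2 or more libraries reached 1 TPM, and their log2 values, taken with a pseudocount of 1, were fitted by limma 3.58.1 in R 4.3.3. The fit used all 8 libraries, group means and a trended prior. Its two-sided p-values were adjusted by Benjamini-Hochberg for each comparison and called at 0.05. The fit was also run on simulated data with independent noise for each gene. Those data held no length trend or shift in scaling, so they do not speak to either. Shares were compared by exact permutation in scipy 1.17.1 under Python 3.11.15 (pandas 2.3.3, numpy 2.4.6; plots by matplotlib 3.10.9).

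The members, gene lists, tests and alternatives were chosen with earlier results of these data known. From each list and comparison, up to 4 passing genes with the smallest adjusted p could be named, and for each tested member the 3 genes most like it by Pearson r among those whose mean was 5 TPM or more in some group. Plin2, Olr1, Dgat2, Mylip, Klf5 and Nr4a2 were named after their values were seen. The macrophage markers Mrc1 and Csf1r were taken by none of these rules. A gene that the rule takes is not reported here. Replicates are named by the library titles. Alternatives were other pseudocounts (0.1 and 5), other filters (none, or 5 TPM), scaling by median ratio, by quantiles or without mitochondrial genes and the top 20 genes, other priors (constant or robust), library weights, fits of 2 groups alone, replicate blocks, removal of the length trend and omission of each library.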

Additional observations from a re-analysis of the deposited data

How the results depend on the processing

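Each of the 7 tested genes in 3 comparisons was refitted under 23 alternatives. Of these 483 values, 445 kept their direction and their side of the threshold, 15 lost a call, 3 gained one without a change of sign and 20 changed sign. Sign changes that also passed the threshold are counted only among the 20, so more than 3 values gained a call. They include Nr1h2 in GC against Control and Rxrb and Nr1h3 in GC+GW9662 against Control, each with median-ratio scaling. Nr1h3 and Rxrb in both comparisons that involve GC, Ncor1 in GC against Control, and Pparg, Ppard and Nr1h2 in GC+GW9662 against GC, kept direction and call throughout. Every alternative used the deposited Pparg values, and those of GC+GW9662 and Control were not whole reads. Changes of sign all concerned genes that had not passed in the main fit. For Nr1h2 in GC against Control the value was 0.51 with median-ratio scaling, 0.24 with quantile normalization, 0.15 after rescaling without mitochondrial and the top 20 genes, 0.043 with library weights, 0.47 with the length trend removed and -0.17 to 0.12 when single libraries were left out. For Ncor1 in GC+GW9662 against GC it was -0.020 with a pseudocount of 5, -0.11 after rescaling, -0.18 with library weights, and -0.36 to 0.29 when single libraries were left out, and -0.027 without both libraries with few decimals in Pparg. For Rxrb in GC+GW9662 against Control it was 0.68 with median-ratio scaling, 0.40 with quantile normalization, 0.022 after rescaling, 0.69 with the length trend removed, and -0.087 to 0.0060 when single libraries were left out. For Nr1h3 in that comparison it was 0.54, 0.83 and 0.32 with median-ratio scaling, quantile normalization and the length trend removed. The cause was not tested.

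The number of genes called ran from 5901 to 9259 in GC against Control, from 7337 to 10801 in GC+GW9662 against GC and from 5902 to 10317 in GC+GW9662 against Control when single libraries were left out, against 8291, 9253 and 9398 with all 8. Without Control replicate 1, GC+GW9662 against Control gave the 5902. Without both libraries with few decimals in Pparg (chosen after the data were seen), GC against Control gave 5118 called genes. GC+GW9662 against Control then gave 0 by limma, with 7031 genes at an unadjusted p under 0.05 and 0 of the 7 members called. The same fit ended the Rxra call in GC against Control (-1.16, limma adjusted p = 0.073). Called genes split into 2428 higher and 5863 lower in GC against Control, 4112 and 3970 with median-ratio scaling, 4187 and 3915 with quantile normalization and 4416 and 3765 with the length trend removed. For GC+GW9662 against Control the split was 2114 and 7284, and 4507 and 4601, 4216 and 4443, and 3841 and 3434 under the same 3 alternatives. Library weights called 12405, 12593 and 11406 genes. Each of the 9 differences in a share of family TPM kept its sign under quantile normalization, with the length trend removed and without each library.

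The labels state no pairing of the replicate numbers. Deviations of same-numbered GC+GW9662 and GC libraries from their group means correlated at -0.10, -0.12 and 0.08. With so few libraries per group these values cannot decide whether samples were paired. With the replicate block by title number, 7145, 8351 and 8368 genes were called in GC against Control, GC+GW9662 against GC and GC+GW9662 against Control, and by bracket number 7329, 8448 and 8365; neither changed a call of the 7 genes. With 2 Control libraries and estimated depths of 18166454 to 27863460 reads, a difference in Rxrg, with at most 8 reads in a library, was not detectable. Ppara was tested only without the filter, where it passed in GC against Control and in GC+GW9662 against Control.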
